A study of Mus musculus with 4 samples.

Results

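The G1 cyclins, CDK inhibitors and RB family are described here as 10 genes chosen by symbol for their place in the control of G1, out of 39179 genes listed for each library. They are the D-type cyclin genes *Ccnd1*, *Ccnd2* and *Ccnd3*, the E-type cyclin gene *Ccne1*, the G-type cyclin gene *Ccng2*, the CDK inhibitor genes *Cdkn1a*, *Cdkn1b* and *Cdkn2a*, and the pocket protein genes *Rb1* and *Rbl2*. All 10 were found by symbol in the annotation, and 9 passed the filter on low counts. *Cdkn2a*, the exception, had 0 counts in every library.

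RNA was sequenced from B16F1 cells, a mouse melanoma line, in 4 libraries. The parental group (replicates 1 and 3) was untreated B16F1 control cells in conventional 2D culture. The TRC group (replicates 1 and 3) was tumor repopulating cells, which grew as spheroids from B16F1 cells in soft fibrin gels of 90 Pa and were taken out on day 5. No allele, transgene or drug was stated for either group, and both came from the same cell line. Growth in a gel and selection by the gel were applied together, so their parts in any difference cannot be told apart. The labels do not say whether the replicates came from separate cultures, and p-values measure only the spread between these samples, which may be technical.

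Depth ranged from 35948295 to 43511554 counts on genes per library, where 3 counts, taken as the limit that a count of 0 allows, equal 0.0689 to 0.0835 CPM (counts scaled to the library size). This limit covers counting error only. All 7 melanocyte lineage markers (*Mitf*, *Sox10*, *Pmel*, *Tyr*, *Tyrp1*, *Dct*, *Mlana*) were at 1 CPM or more in every library. Their summed level was 15423 and 19586 CPM in the parental libraries and 24552 and 25501 CPM in TRCs. *Dct* was at 5896 and 4254 CPM in parental replicates 1 and 3, against 11425 and 9588 CPM in TRC replicates 1 and 3. *Pmel* was also higher in both TRC libraries, while *Mitf*, *Sox10*, *Tyr*, *Tyrp1* and *Mlana* overlapped between the groups. Of the 6 leukocyte markers, 5 including *Ptprc* were at 0 in all libraries, and 2 of 4 endothelial markers were at 0. Of 5 fibroblast markers, only *Pdgfra* reached 1 CPM, with a sum of 1.26 to 2.21 CPM for the list. Alignments that were not unique, which were not counted on genes, made up 15.2% and 17.1% in parental replicates 1 and 3, against 18.3% and 25.2% in TRC replicates 1 and 3. Their part in the results was not tested.

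D-type cyclins bind CDK4 and CDK6 in response to growth signals, and the complexes phosphorylate RB1 and its relatives p107 (*Rbl1*) and p130 (*Rbl2*). Phosphorylation frees E2F factors to transcribe genes of S phase, among them cyclin E, which with CDK2 completes the phosphorylation. CIP/KIP inhibitors (p21, p27, p57) bind cyclin-CDK complexes, whereas INK4 inhibitors (p16, p15, p18, p19) bind CDK4 and CDK6 alone. In melanoma, loss of *CDKN2A*, which encodes p16 and the separate protein ARF, is a well-known lesion.

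In TRCs, the levels of *Ccng2*, *Cdkn1b* and *Rb1* rose, those of the D-type cyclins, *Ccne1*, *Cdkn1a* and *Rbl2* did not pass the test, and *Cdkn2a* had no counts in either group. In bulk RNA, fewer cells with a transcript and less of it per cell cannot be told apart. Levels are given as CPM scaled by TMM factors, which adjust for library size and composition. Fold changes are log2 values of TRC over parental with the standard error (SE) and 95% interval from DESeq2. A gene was called where edgeR's exact test gave a Benjamini-Hochberg false discovery rate (FDR) under 0.05 over all 11483 genes tested.

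Of the 9 members tested, 3 were called higher in TRCs, where 8.81% of all genes tested were called higher and 15.9% in either direction. The members were chosen with earlier results of these data known, so their counts beside these shares are a description only. None of the members was called lower, a count of 0 beside 7.05% of all genes. It stayed at 0 without adjustment (p under 0.05) in the exact and quasi-likelihood tests of edgeR and in DESeq2. The median log2 fold change was 0.32 for the 9 members and 0.0034 for all genes tested. The groups did not overlap for 3 members, with both TRC libraries above both parental libraries, an order found in 30.2% of all genes. The opposite order was found in 0 members and in 30.4% of all genes. With 2 libraries per group, the exact permutation test of a single value cannot go below p = 0.33.

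**Figure D1:**
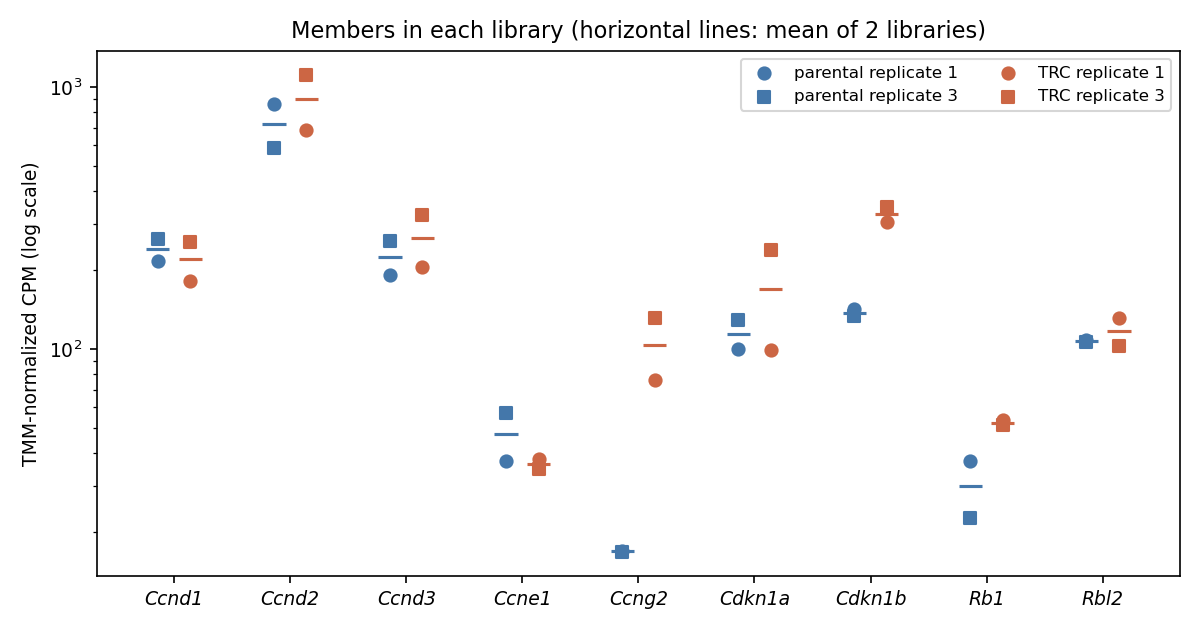
TMM-normalized CPM on a log scale for the members in each of the 4 libraries, with horizontal lines at the mean of the 2 libraries of a group. The TRC points of *Ccng2* (76.0 and 131 CPM) and *Cdkn1b* (306 and 350 CPM) lie clear of the parental points (16.8 and 16.9 CPM, and 133 and 142 CPM), while those of the D-type cyclins overlap.

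The D-type cyclin genes encode the partners of CDK4 and CDK6 and were all expressed in both groups. *Ccnd1* (cyclin D1, ENSMUSG00000070348, GRCm38 chromosome 7, 144929931 to 144939925, minus strand) was at 217 and 263 CPM in parental replicates 1 and 3, against 182 and 257 CPM in TRC replicates 1 and 3. The lowest value was that of TRC replicate 1, and the groups overlapped. The log2 fold change was -0.13 (SE 0.24, interval -0.60 to 0.35, FDR 0.796).

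*Ccnd2* (cyclin D2, ENSMUSG00000000184, chromosome 6, 127125162 to 127152193, minus strand) was at 860 and 583 CPM in parental replicates 1 and 3, against 686 and 1116 CPM in TRC replicates 1 and 3. TRC replicate 3 held the highest value and parental replicate 3 the lowest, with the other libraries in between. Its log2 fold change of 0.32 did not pass the test (SE 0.29, interval -0.24 to 0.89, FDR 0.503).

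*Ccnd3* (cyclin D3, ENSMUSG00000034165, chromosome 17, 47505051 to 47599691, plus strand) was at 191 and 259 CPM in parental replicates 1 and 3, against 206 and 325 CPM in TRC replicates 1 and 3. Replicate 3 was the higher library in both groups, and the groups overlapped. This gave a log2 fold change of 0.24 (SE 0.28, interval -0.31 to 0.78, FDR 0.623). Exons of *Ccnd3* overlap those of *Bysl* on the opposite strand, and the strand setting of the counting was not stated, so reads of the overlap are uncertain. The same holds for *Ccnd1* with *LTO1*, and a pseudogene of *Ccnd3* (*Ccnd3-ps*) is annotated.

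Levels of different genes are compared only after division by exon length in kb, taken over all annotated exons of a gene. On that scale *Ccnd2* made up 57.4% and 42.1% of the D-type cyclin level in parental replicates 1 and 3, against 54.0% and 56.4% in TRC replicates 1 and 3. The share of *Ccnd1* was 28.9% and 37.8% in parental replicates and 28.6% and 26.0% in TRCs, and that of *Ccnd3* was between 13.7% and 20.1% in all 4 libraries. With this length, *Ccnd2* was thus the most abundant D-type cyclin gene in each library. The transcripts in these cells may be shorter than all annotated exons together, so the order between genes is uncertain. The make-up of the family in TRCs overlapped that in parental cells for *Ccnd2* and *Ccnd3*. For *Ccnd1* both TRC shares were below both parental shares, though TRC replicate 1 and parental replicate 1 were nearly the same. The summed level of the family was 159 and 147 CPM per kb in parental replicates 1 and 3, against 135 and 210 in TRC replicates 1 and 3, so it also overlapped.

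*Ccne1* (cyclin E1, ENSMUSG00000002068, chromosome 7, 38097984 to 38107534, minus strand) encodes the partner of CDK2 at the entry into S phase. It was at 37.5 and 56.8 CPM in parental replicates 1 and 3, against 37.9 and 34.9 CPM in TRC replicates 1 and 3. Parental replicate 3 stood above the other 3 libraries, which were close together. The fold change, -0.37 on the log2 scale, did not pass the test (SE 0.27, interval -0.91 to 0.16, FDR 0.358).

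*Ccng2* (cyclin G2, ENSMUSG00000029385, chromosome 5, 93267257 to 93276231, plus strand) encodes an unconventional cyclin known for high levels in cells that leave the cycle, and FOXO factors are known to induce it. Its raw counts were 753 and 593 in parental replicates 1 and 3, against 3161 and 5449 in TRC replicates 1 and 3. These equal 16.9 and 16.8 CPM in parental cells and 76.0 and 131 CPM in TRCs, or means of 16.9 ± 0.0930 and 104 ± 38.8 CPM (SD, n = 2). The parental libraries were nearly the same, and each TRC library stood several times above both. The rise was 6.13-fold, a log2 fold change of 2.62 (SE 0.29, interval 2.05 to 3.19, FDR 3.78e-17 by the exact test), and the gene was called under every alternative. Its FDR was much larger in edgeR's quasi-likelihood test, at 0.00732, and 0.0157 with a block for the replicate number. The fold change of *Ccng2* was the largest among the members tested.

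*Cdkn1b* (p27, ENSMUSG00000003031, chromosome 6, 134920401 to 134925513, plus strand) encodes the CIP/KIP inhibitor that binds cyclin E-CDK2. It was at 142 and 133 CPM in parental replicates 1 and 3, against 306 and 350 CPM in TRC replicates 1 and 3, with means of 138 ± 6.68 and 328 ± 30.7 CPM (SD, n = 2). Both TRC libraries stood far above both parental libraries, with a small spread in each group. The rise was 2.38-fold, a log2 fold change of 1.25 (SE 0.19, interval 0.87 to 1.63, FDR 3.46e-06), and this call too was kept under every alternative.

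The promoter of *Cdkn1b* is shown as that of a member with a clear rise whose upstream bases lie outside annotated exons. The 250 bases upstream of the RefSeq start are chr6:134920151-134920400 on GRCm38, plus strand, and capitals mark the motifs found by letters.
Cdkn1b promoter: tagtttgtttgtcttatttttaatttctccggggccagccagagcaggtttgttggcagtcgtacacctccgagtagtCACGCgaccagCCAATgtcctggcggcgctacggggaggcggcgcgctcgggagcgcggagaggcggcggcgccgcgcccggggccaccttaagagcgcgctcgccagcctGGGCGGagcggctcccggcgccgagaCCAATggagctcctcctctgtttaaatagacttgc
Counted from the start, the capitals are GCGTG read on the minus strand at -172 to -168, CCAAT at -161 to -157 and at -35 to -31, and GGGCGG at -61 to -56. Among 32851 RefSeq promoters of the same length, searched on both strands, 28.2% hold GCGTG (a hypoxia response core), 33.8% the CCAAT box and 32.7% the GC box GGGCGG. These are short motifs that many promoters hold, and a match describes letters and not a site. The E2F letters (TTTCGCGC, TTTGGCGC, TTTCCCGC or TTTGGCGG, in 1.96% of promoters), the CHR letters TTTGAA (16.0%), the hypoxia response core ACGTG (16.6%) and the FOXO letters GTAAACA (3.17%) were not in this window. RefSeq promoters were matched for 7 of the 10 members.

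Among the other members, the GTAAACA letters were found in 1 window of *Ccnd3* at -243 to -237 on the minus strand, TTTGAA in that of *Rbl2* at -201 to -196 on the minus strand, and ACGTG in those of *Rbl2* at -142 to -138 and of *Ccne1* at -248 to -244 on the minus strand. The window of *Ccng2* held GCGTG at -49 to -45 and GGGCGG at -41 to -36, both on the minus strand. This window lies wholly within annotated exons of *Ccng2*. Of these 4 genes, *Ccng2* was called and *Ccnd3*, *Rbl2* and *Ccne1* were not. GCGTG and GGGCGG were also found in windows of *Ccnd3*, *Ccne1* and *Cdkn1a*, none of which was called, and of *Cdkn2a*, which had no counts. Whether any of these letters bear on the levels was not tested.

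*Cdkn1a* (p21, ENSMUSG00000023067, chromosome 17, 29090976 to 29100727, plus strand) encodes the CIP/KIP inhibitor known as a p53 target. It was at 99.9 and 128 CPM in parental replicates 1 and 3, against 99.1 and 239 CPM in TRC replicates 1 and 3. The TRC libraries differed 2.41-fold from each other, and replicate 1 of TRCs was level with the lower parental library. The log2 fold change was 0.57 (SE 0.36, interval -0.14 to 1.28, FDR 0.285). It depended on the TRC library, being 1.05 (FDR 0.0103) without TRC replicate 1 and -0.21 (FDR 0.794) without TRC replicate 3.

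Together the CIP/KIP inhibitors summed to 59.5 and 65.4 CPM per kb in parental replicates 1 and 3, against 95.1 and 144 in TRC replicates 1 and 3. *Cdkn1b* made up 52.6% and 44.7% of that in parental cells and 70.7% and 53.3% in TRCs, and *Cdkn1c* (p57) at most 0.222%. Both TRC shares of *Cdkn1b* were above both parental shares, though the margin of TRC replicate 3 over parental replicate 1 was small. The level of *Cdkn1a* and *Cdkn1b* relative to that of the D- and E-type cyclins *Ccnd1*, *Ccnd2*, *Ccnd3* and *Ccne1*, per length, was 0.343 and 0.388 in parental replicates 1 and 3, against 0.637 and 0.645 in TRC replicates 1 and 3. The ratio without division by length was 0.186 and 0.225 in parental cells and 0.364 and 0.340 in TRCs. The ratio was chosen after the values had been seen and is given as a description.

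*Cdkn2a* (ENSMUSG00000044303, chromosome 4, 89274471 to 89294653, minus strand) encodes p16 and ARF from separate first exons. It had 0 counts in all 4 libraries, which allows at most 0.0689 to 0.0835 CPM. The 216 bases ahead of its outer start, that of the ARF transcript, at chr4:89294654-89294869 on GRCm38, minus strand, are shown as those of the member without counts, with motif letters in capitals.
Cdkn2a upstream of the outer start: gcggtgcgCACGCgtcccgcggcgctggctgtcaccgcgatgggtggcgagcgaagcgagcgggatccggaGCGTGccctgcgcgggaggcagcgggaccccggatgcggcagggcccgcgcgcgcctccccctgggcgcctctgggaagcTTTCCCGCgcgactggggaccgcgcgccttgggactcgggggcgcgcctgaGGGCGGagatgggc
The capitals are GCGTG on either strand, the E2F letters TTTCCCGC at -99 to -92 from the RefSeq start, and GGGCGG. Of the members with a RefSeq promoter, *Cdkn2a* was the only one with E2F letters.

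The neighbourhood of *Cdkn2a* was then read, by a window of 500 kb on each side chosen after its counts were seen. It holds 29 listed genes, 15 of them protein coding, and 20 had 0 counts in all libraries. Of all 39179 listed genes, only 19571 had a count in any library. *Mtap*, which encodes an enzyme of methionine salvage and lies next to *Cdkn2a*, had 11763 and 12919 counts in parental replicates 1 and 3, against 7579 and 8323 in TRC replicates 1 and 3. The next 9 listed genes in order of start were at 0 in every library, as far as position 89463487. *Cdkn2a* and *Cdkn2b* (p15) are the 2 protein-coding genes among them. The gene after these 9, *Dmrta1*, had 0 counts in both parental libraries and 1 in each TRC library. No listed gene of the window other than *Mtap* exceeded 11 counts in a library.

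**Figure D2:**
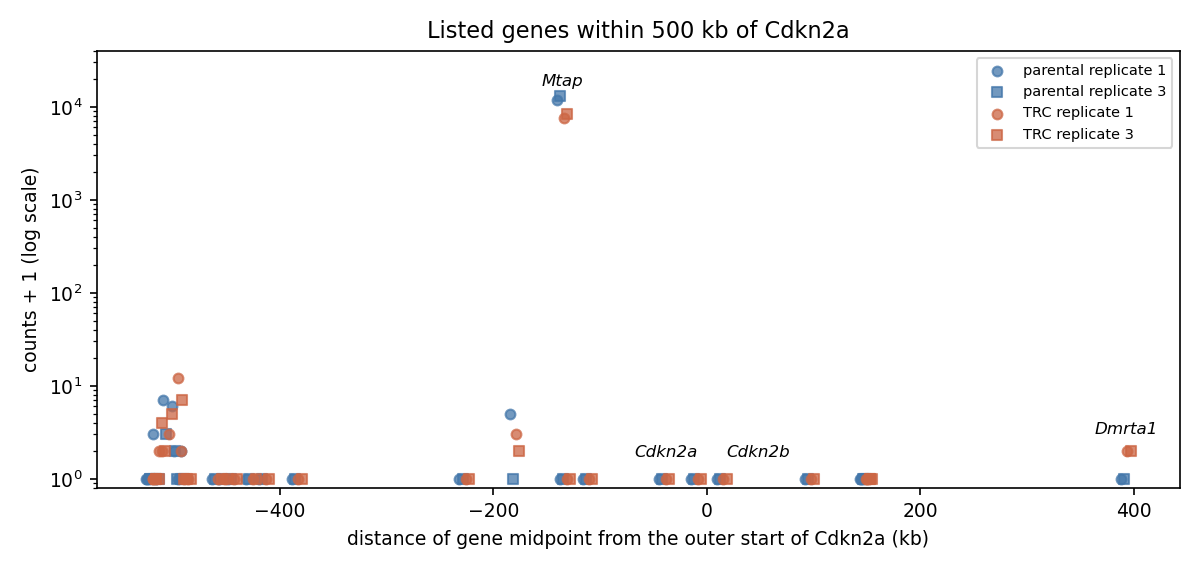
Counts plus 1 on a log scale for each listed gene within 500 kb of *Cdkn2a*, against the distance of the gene's midpoint from the outer start of *Cdkn2a* in kb, with the libraries set side by side. *Mtap* stands between 7579 and 12919 counts, while *Cdkn2a* and *Cdkn2b* are at 0 counts in all 4.

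Of the INK4 genes with counts, *Cdkn2c* (p18) was at 56.4 and 70.6 CPM in parental replicates 1 and 3, against 82.2 and 76.9 CPM in TRCs, and it did not pass the test (log2 fold change 0.33, FDR 0.360). *Cdkn2d* (p19) was at 47.3 and 47.5 CPM in parental cells and at 73.9 and 75.8 CPM in TRCs and rose (log2 fold change 0.66, SE 0.20, FDR 0.0220). Per length, the INK4 genes summed to 51.0 and 56.5 CPM per kb in parental replicates 1 and 3, against 77.6 and 76.8 in TRCs, all of it from *Cdkn2c* and *Cdkn2d*.

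**Figure D3:**
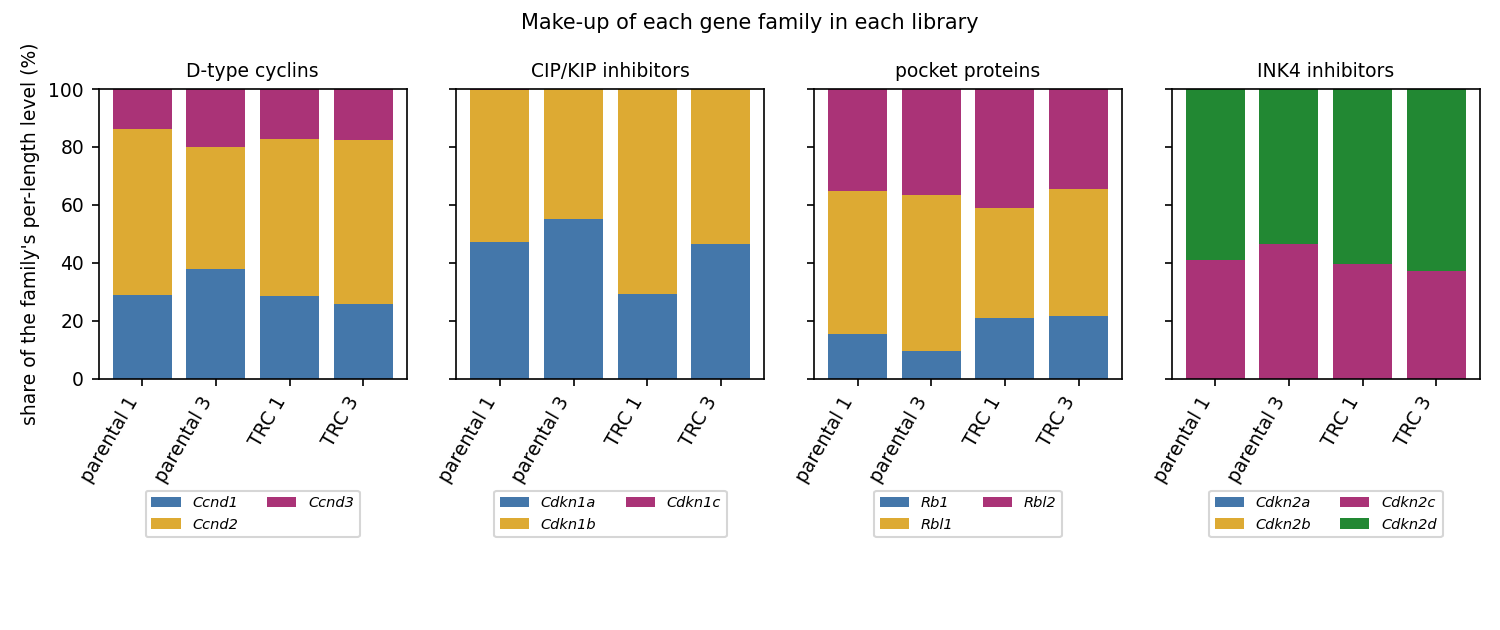
Share in percent of each gene in the summed per-length level of its family, for D-type cyclins, CIP/KIP inhibitors, pocket proteins and INK4 inhibitors, with 1 bar per library. *Rb1* takes 15.4% and 9.76% of the pocket protein level in the parental libraries and 20.9% and 21.6% in TRCs, and *Cdkn2a* and *Cdkn2b* take 0.

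*Rb1* (ENSMUSG00000022105, chromosome 14, 73183673 to 73325822, minus strand) encodes the retinoblastoma protein, which holds E2F factors in G1. It was at 37.5 and 22.5 CPM in parental replicates 1 and 3, against 53.3 and 51.2 CPM in TRC replicates 1 and 3. Both TRC libraries were above both parental libraries, and the parental libraries were further apart than the TRC libraries. *Rb1* rose 1.74-fold, a log2 fold change of 0.80 (SE 0.29, interval 0.24 to 1.36, FDR 0.0290). The call was lost without parental replicate 3 (log2 fold change 0.48, FDR 0.372), without TRC replicate 1 (0.75, FDR 0.203), without TRC replicate 3 (0.82, FDR 0.146) and in the quasi-likelihood test (FDR 0.0818). Exons of *Rb1* overlap *Rcbtb2* and *Lpar6* on the opposite strand.

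*Rbl2* (p130, ENSMUSG00000031666, chromosome 8, 91070057 to 91123844, plus strand) encodes the pocket protein known for its role in quiescent cells. It was at 108 and 106 CPM in parental replicates 1 and 3, against 131 and 103 CPM in TRC replicates 1 and 3, so the TRC libraries lay on either side of the parental ones. Its exons overlap *Aktip* on the opposite strand. The log2 fold change was 0.13 (SE 0.22, interval -0.29 to 0.55, FDR 0.768). *Rbl1* (p107), the third family gene, was at 120 and 123 CPM in parental cells and at 97.1 and 103 CPM in TRCs (log2 fold change -0.28, FDR 0.428). The summed per-length level of the family was 40.6 and 38.4 CPM per kb in parental replicates 1 and 3, against 42.4 and 39.4 in TRC replicates 1 and 3, so the groups overlapped in sum.

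**Figure D4:**
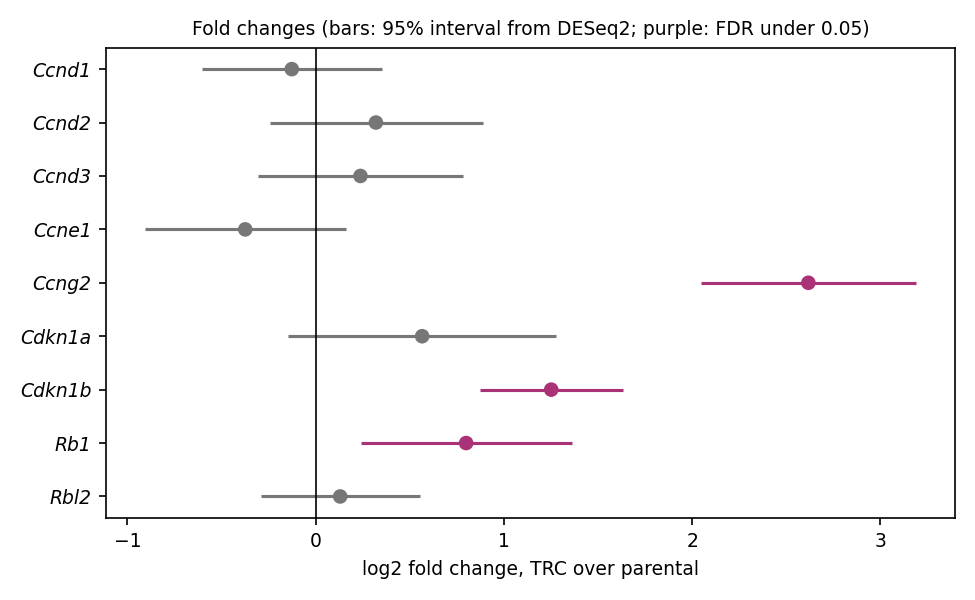
Log2 fold change of TRC over parental for the 9 members tested, with bars for the 95% interval from DESeq2 and purple for FDR under 0.05. The intervals of *Ccng2* (2.05 to 3.19), *Cdkn1b* (0.87 to 1.63) and *Rb1* (0.24 to 1.36) lie above 0, and those of the other 6 members include 0.

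Ordered by mean level per length, parental cells had *Ccnd2* at 76.7 CPM per kb, *Ccnd1* at 50.9, *Cdkn1a* at 32.1, *Cdkn1b* at 30.3, *Ccnd3* at 25.7, *Ccne1* at 17.7, *Rbl2* at 14.1, *Rb1* at 4.99 and *Ccng2* at 3.09. Of the neighbours in that order, *Cdkn1a* and *Cdkn1b*, *Cdkn1b* and *Ccnd3*, and *Ccne1* and *Rbl2* overlapped between libraries. In TRCs the order was *Ccnd2* at 95.7 CPM per kb, *Cdkn1b* at 72.0, *Cdkn1a* at 47.6, *Ccnd1* at 46.6, *Ccnd3* at 30.3, *Ccng2* at 19.0, *Rbl2* at 15.5, *Ccne1* at 13.7 and *Rb1* at 8.68. Here *Cdkn1b* overlapped *Ccnd2*, and *Cdkn1a* overlapped *Ccnd1*, while *Ccnd3*, *Ccng2* and *Rbl2* each overlapped the next. By mean, *Cdkn1b* moved from place 4 to 2 and *Ccng2* from place 9 to 6, though *Ccng2* overlapped *Rbl2* in TRCs. Within libraries, *Cdkn1b* held places 3 and 5 in parental replicates 1 and 3. *Ccng2* held places 8 and 6 in TRC replicates 1 and 3. Both orders rest on the length of all annotated exons and are uncertain where the transcripts are shorter.

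Other genes of the pathway were counted in lists by role. The counts of every list stand beside 8.81% of all genes tested called higher and 7.05% called lower. The lists, too, were chosen with earlier results of these data known. A single call in a list of 11 or 14 tested genes is near these shares. Of 11 genes for CDKs and other regulators of G1, not all of them activators, 1 was called lower and 0 higher by edgeR's exact test. Without adjustment (p under 0.05), 0 were higher too by that test, the quasi-likelihood test and DESeq2. The list's median log2 fold change was -0.39. The gene called was *Cdc25a*, which encodes a phosphatase that activates CDK2, at 93.3 and 161 CPM in parental replicates 1 and 3, against 74.5 and 62.4 CPM in TRC replicates 1 and 3 (log2 fold change -0.89, SE 0.29, FDR 0.0130). The quasi-likelihood test called 0 genes of this list, with 4 lower without adjustment (p under 0.05). The kinase genes were named for their role after their values had been seen, and none passed the test. *Cdk4* was at 358 and 391 CPM in parental cells and 303 and 336 CPM in TRCs (FDR 0.549), and *Cdk6* at 7.13 and 8.64 CPM and 5.58 and 4.04 CPM (FDR 0.257). *Cdk2* was at 443 and 290 CPM in parental cells and 465 and 526 CPM in TRCs (FDR 0.267). *Ccne2* (cyclin E2) was at 27.0 and 61.2 CPM and 21.8 and 27.0 CPM (FDR 0.0756).

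Of 5 further CDK inhibitor and G-type cyclin genes, 3 were tested, and besides *Cdkn2d* the gene called was *Ccng1*, which fell. *Ccng1* (cyclin G1, a p53 target) was at 154 and 226 CPM in parental replicates 1 and 3, against 113 and 122 CPM in TRC replicates 1 and 3 (log2 fold change -0.69, SE 0.25, FDR 0.0406). The G-type cyclin genes *Ccng1* and *Ccng2* thus changed in opposite directions by the exact test. The quasi-likelihood test did not call *Ccng1* (FDR 0.0829), and its log2 fold change was -0.39 without parental replicate 3.

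The MuvB core forms a repressor of cell cycle genes with p130. Among 17 genes of E2F and DP factors, p107, the MuvB core and, listed beside them, *Mybl2*, 6 fell and 0 rose. The list's median log2 fold change was -0.57. Without adjustment (p under 0.05), 1 of them was higher by the exact test of edgeR, by its quasi-likelihood test and by DESeq2. *Mybl2* was at 49.4 and 71.4 CPM in parental replicates 1 and 3, against 24.1 and 28.4 CPM in TRC replicates 1 and 3 (log2 fold change -1.20, FDR 0.000149). *E2f7* was at 23.6 and 38.5 CPM and 12.8 and 12.0 CPM (-1.32, FDR 0.00115), and *E2f8* at 56.3 and 92.5 CPM and 38.5 and 36.8 CPM (-0.98, FDR 0.00355). *E2f7* and *E2f8* encode repressors of the family and are E2F targets themselves. The other genes called lower were *E2f6*, *Tfdp1* and *Lin54*. Of the list, 1 gene was called lower without parental replicate 3, 2 without TRC replicate 1 and 1 without TRC replicate 3.

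The E2F target genes of S phase had 16 of 21 called lower and 0 higher, 0 also without adjustment (p under 0.05) by the exact and quasi-likelihood tests of edgeR and by DESeq2. All 21 had a fold change below 0, from -1.33 to -0.30, with a median of -0.89. *Cdt1*, a licensing factor of DNA replication, was at 108 and 137 CPM in parental replicates 1 and 3, against 51.0 and 46.1 CPM in TRC replicates 1 and 3 (log2 fold change -1.33, FDR 1.15e-06). *Cdc6*, which loads the replicative helicase, was at 46.8 and 90.3 CPM and 26.4 and 29.1 CPM (-1.30, FDR 0.000394). In every gene of the list, parental replicate 3 was above parental replicate 1. Both TRC libraries were below both parental libraries in 19 of the 21, an order found in 30.4% of all genes tested. *Cdt1* and *Cdc6* were among these. Without parental replicate 3, 2 of the 21 were called and the median was -0.55, and without either TRC library 5 were called.

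Of 13 genes of G2 and M phase, 2 fell and 0 rose, 0 also without adjustment (p under 0.05) by those edgeR tests and DESeq2, with a median log2 fold change of -0.47. *Foxm1*, a transcription factor of mitotic genes, was at 275 and 330 CPM in parental replicates 1 and 3, against 168 and 157 CPM in TRC replicates 1 and 3 (log2 fold change -0.90, FDR 0.00197). *Birc5* (survivin) was at 139 and 184 CPM and 90.8 and 110 CPM (-0.69, FDR 0.0357). The list had 4 genes called lower without parental replicate 1, 0 without parental replicate 3, 1 without TRC replicate 1 and 0 without TRC replicate 3.

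Regulators known to act on *Cdkn1a*, *Ccng2* and *Cdkn1b* were counted too. Of 18 genes for p53 and its targets, 14 were tested, of which 3 fell and 1 rose, with a median log2 fold change of -0.23. *Trp53* was at 160 and 197 CPM in parental replicates 1 and 3, against 81.6 and 90.2 CPM in TRC replicates 1 and 3 (log2 fold change -1.06, SE 0.21, FDR 0.000241). *Aen*, a p53-induced nuclease, was at 43.8 and 48.6 CPM and 22.7 and 18.1 CPM (-1.18, FDR 0.000155), and *Mdm2*, the ubiquitin ligase of p53, at 140 and 139 CPM and 84.3 and 85.7 CPM (-0.71, FDR 0.0132). *Sesn1* was the gene that rose, from 14.7 and 14.3 CPM to 34.8 and 24.8 CPM (1.04, FDR 0.00766). With parental replicate 3 or either TRC library left out, 2 genes of the list were called lower.

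Among 9 FOXO factors and targets, 3 rose and 0 fell, with a median log2 fold change of 0.73. Without adjustment (p under 0.05), 1 gene was lower by the exact test of edgeR, by its quasi-likelihood test and by DESeq2. *Foxo3* was at 49.3 and 44.5 CPM in parental replicates 1 and 3, against 81.0 and 110 CPM in TRC replicates 1 and 3 (log2 fold change 1.03, SE 0.24, FDR 0.000485). *Sesn3* was at 26.0 and 29.3 CPM and 64.8 and 43.9 CPM (0.97, FDR 0.00326). *Txnip*, which encodes an inhibitor of thioredoxin, was at 75.1 and 15.9 CPM and 125 and 252 CPM (2.05, SE 1.05, FDR 0.00288), with parental libraries far apart, and it was not called by the quasi-likelihood test (FDR 0.0790) or DESeq2 (FDR 0.170). Without TRC replicate 1, 2 genes of the list were called higher, and without TRC replicate 3, 1 was.

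Many calls outside the members were lost in fits with 1 library fewer. *Trp53*, *Cdt1*, *Mybl2* and *Aen* kept theirs with any 1 library left out. Without parental replicate 3, the calls of *Cdc25a*, *Ccng1*, *Cdkn2d*, *E2f7*, *E2f8*, *Cdc6*, *Foxm1*, *Birc5*, *Mdm2* and *Sesn1* were lost, with FDR from 0.0569 (*Mdm2*) to 0.472 (*Ccng1*). In that fit the log2 fold changes of *Cdc25a* (-0.45), *Ccng1* (-0.39), *E2f8* (-0.58) and *Cdc6* (-0.76) were closer to 0 than with all libraries. Without TRC replicate 1, *Cdc25a*, *Ccng1*, *Cdkn2d*, *E2f8*, *Birc5*, *Mdm2*, *Sesn1* and *Sesn3* lost theirs, and without TRC replicate 3, *Cdc25a*, *Ccng1*, *Cdkn2d*, *E2f7*, *E2f8*, *Foxm1*, *Birc5*, *Mdm2*, *Foxo3* and *Txnip* did. *Cdkn2d* also lost its call without parental replicate 1 (FDR 0.0694). The fold changes of *Cdkn2d* (0.63 to 0.66) and *Mdm2* (-0.73 to -0.71) hardly moved over these fits. The quasi-likelihood test on all libraries did not call *Cdc25a* (FDR 0.0708), *Ccng1* (FDR 0.0829) or *Birc5* (FDR 0.0720).

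**Figure D5:**
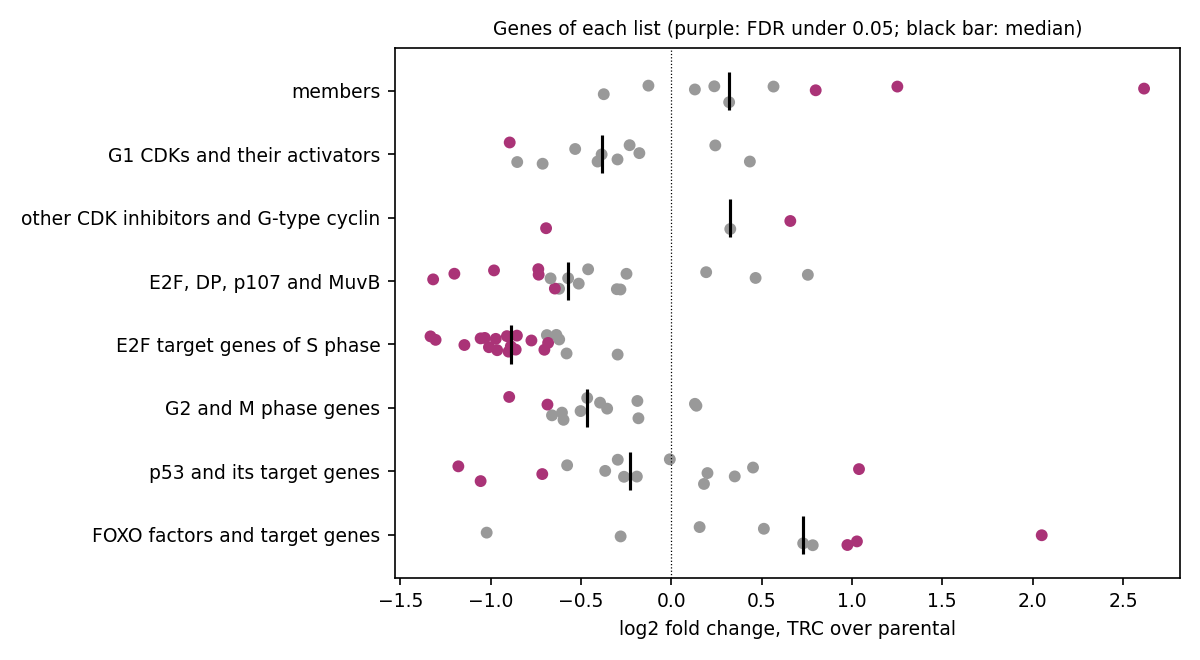
Log2 fold change of TRC over parental for each gene tested in the lists of the pathway, with purple for FDR under 0.05 and a black bar at the median of each list. All 21 E2F target genes of S phase lie below 0 with a median of -0.89, and the FOXO list has a median of 0.73.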

How the data were processed

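Per the paper's methods, the authors made stranded libraries, sequenced them single-end, trimmed with Trimmomatic 0.35, mapped to GRCm38 (Ensembl v75 annotation) by TopHat2 2.1.0, Bowtie2 2.2.6 and SAMtools 1.3, and counted them with htseq-count. The deposited values are these raw counts per gene, without normalization. The mode and strand setting of the counting are not given in the sources used here. Multi-mapped reads are not counted, and reads of genes with near-identical copies are uncertain.

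Rows that name no gene were removed. A gene under 1 CPM in 3 or more of the 4 libraries was removed, which left 11483 genes. The design followed the study's methods: TMM factors, tagwise dispersions over a common one, and edgeR's exact test (version 4.0.16 in R 4.3.3, prior count 0.125), with an FDR under 0.05. SEs and 95% intervals came from DESeq2 1.42.0. Levels per length were CPM over the merged length of all exons of a gene. Exons came from GENCODE M21 (GRCm38), in which 37607 gene identifiers were found. Promoters came from RefSeq on GRCm38, of which the 250 bases upstream of each start were searched. Scripts were tested on simulated data. Python 3.11.15 and matplotlib 3.10.9 made the plots.

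The members and lists were chosen with earlier results of these data known. Genes named are the members, *Trp53*, and from each of the 7 lists up to 3 genes per direction with the smallest FDR under 0.05. Others are named as chosen for their role or as counted. A gene that this rule selects is not reported here. Alternatives were other filters, DESeq2 size factors, library size only, a prior count of 2, edgeR's quasi-likelihood test alone and with a block for the replicate number, DESeq2's Wald test, and each library left out in turn. The shares of CIP/KIP inhibitors and pocket proteins, the inhibitor ratio and 3 short motifs were added after the data were seen.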

Additional observations from a re-analysis of the deposited data

How the results depend on the processing

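Of all genes tested, 1822 were called, 1012 higher and 810 lower. The quasi-likelihood test called 1054 (567 higher, 487 lower), and with a replicate block 785 (477 higher, 308 lower). Leaving out each library in turn gave 773 to 1932 calls, 500 to 1078 higher and 269 to 854 lower, in fits where the lone library of a group is assumed to vary like the other group. *Ccng2* and *Cdkn1b* kept their calls in every alternative. *Rb1* lost its call with no filter (FDR 0.0735), library size only (FDR 0.0551), the quasi-likelihood test (FDR 0.0818) and the replicate block (FDR 0.0715), so that 2 members were then called. Over the genes tested, the deviations of parental replicate 1 and TRC replicate 1 from their group means had a correlation of 0.0267. With 2 libraries per group, replicate 3 mirrors replicate 1 and adds no further pair. The labels name no shared batch, and the numbers were not taken as pairs in the main test.

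Of the 6 uncalled members tested, 5 changed direction with 1 library left out. The range over these fits was -0.40 to 0.086 for *Ccnd1* (0.017 without parental replicate 3, 0.086 without TRC replicate 1), -0.082 to 0.63 for *Ccnd2*, -0.13 to 0.51 for *Ccnd3*, -0.21 to 1.05 for *Cdkn1a* and -0.071 to 0.29 for *Rbl2*. *Ccne1* ranged from -0.64 to -0.043. Among the members' fold changes, 103 comparisons with an alternative kept direction and side of the threshold, 7 lost and 1 gained the call, and 6 changed sign. For the other named genes 171 kept theirs and 45 lost the call. The list of S phase targets had 8 genes called lower by the quasi-likelihood test and 7 with the replicate block, and the list of E2F, DP, p107 and MuvB genes 4 and 2. With library size only, the median of all genes moved to -0.024. The cause of a lost call was not tested. Shares and ratios without division by exon length moved by more than the replicate spread for several genes, and the order of the groups in the inhibitor ratio was kept.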
